A study of Phaseolus vulgaris with 6 samples.

Results

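The genes described here are the genes of the developing bean pod that carried no annotation by homology to Arabidopsis thaliana and whose transcript level differed strongly between the navy bean cultivars Albion and Voyager. They were chosen from the deposited table of 19598 listed genes, of which 2895 had an empty annotation. A gene was taken when the mean of its Albion and Voyager values was under 100 FPKM, its higher value was at least 1 FPKM and the absolute value of log2((Voyager + 0.1)/(Albion + 0.1)) was at least 1.5, which is close to a 2.83-fold difference. FPKM is a level in sequenced fragments, scaled to the length of the transcript and to the output of the library. The rule gave 174 genes, 98 of them (56.3%) higher in Voyager and 76 higher in Albion. With log2 differences centred on the median of all genes, 52.4% of the genes then meeting the rule were higher in Voyager. With both genotypes scaled to equal FPKM totals, this share was 46.3%. The totals include Phvul.011G204500, which had 9037 FPKM in Albion against 59911 in Voyager.

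Pod RNA was sequenced from 3 samples of Albion and 3 of Voyager, each of pods ground together from a separate greenhouse pot. Voyager was chosen by the study for its higher seed Zn and Albion for its lower seed Zn, and the labels repeat this as a normal and a low zinc concentration while describing every sample as grown with sufficient Zn. The labels put all pods at 20 days after anthesis, whereas the methods of the study describe a younger pod. Developing seed made up a larger part of pod weight in Albion than in Voyager according to the study, and in such whole pods fewer cells of a type and less RNA per cell cannot be told apart. The table holds 1 pooled value per gene and genotype, so there was no spread between replicates. Every difference below is a description without a test, and the table does not give the number of fragments behind a value.

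Genes without a recognised homolog in A. thaliana are a mixed class in legume genomes. They include genes restricted to a lineage, genes of short secreted peptides that diverge quickly, fragments of older genes, and predicted reading frames that may not encode a protein. Cultivars of a crop commonly differ in which of such genes are present or transcribed, and a gene absent from a genome cannot be seen in its RNA.

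Within the limits on level, 2618 unannotated genes were available and 174 of them, 6.65%, were past the fold limit. The share over all 17543 listed genes within the same limits was 3.95%, and among the 14925 annotated genes it was 3.48%, or 519 genes. Higher values in Voyager were found for 3.74% of the unannotated, 2.11% of the annotated and 2.35% of all genes, and higher values in Albion for 2.9%, 1.37% and 1.6%. When genes listed at 0 in a genotype were set aside, 112 unannotated genes (4.38%) were past the limit, against 3.09% of the annotated and 3.28% of all genes. Since the rule itself fixed these differences, the shares describe how common such genes were and are not evidence of a change. The median of log2 differences over all unannotated genes within the limits was 0.08, and over the annotated genes 0.07.

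**Figure D1:**
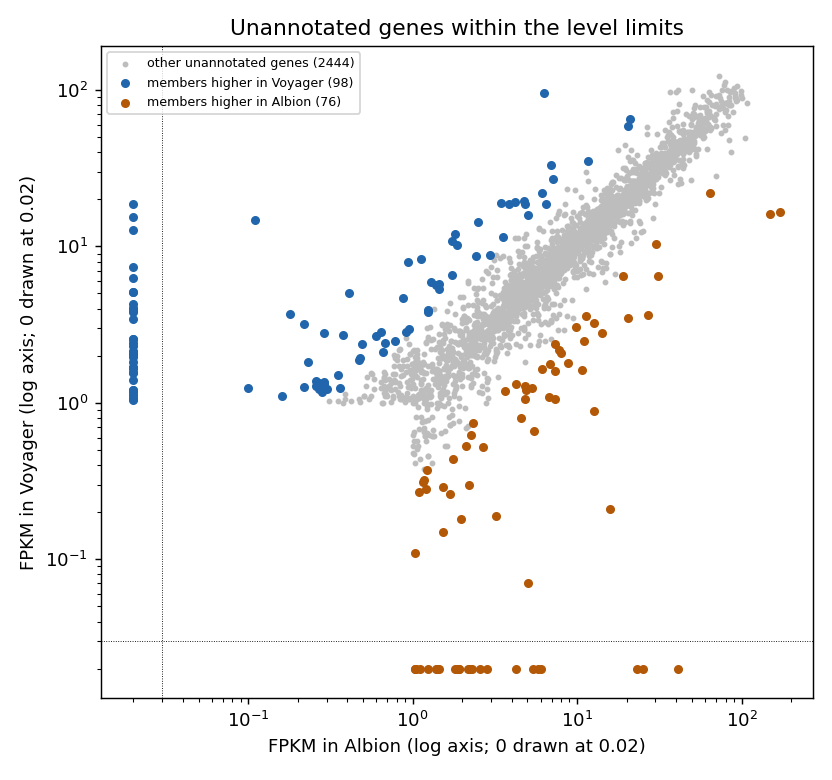
Level in Albion (x axis, FPKM, log axis) against level in Voyager (y axis, FPKM, log axis) for the unannotated genes within the level limits, 1 point per gene, with genes listed at 0 drawn beyond the dotted lines. The 98 genes chosen as higher in Voyager lie above the grey band of 2444 other genes and the 76 chosen as higher in Albion lie below it, and 62 of the chosen genes lie beyond these lines.

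Most of the 174 genes had low levels. The median of the higher value was 3.52 FPKM, with the middle 50% of the genes between 1.78 and 8.75 FPKM, against a median of 9.68 FPKM for the 2444 other unannotated genes. In 54 genes the higher value was under 2 FPKM, in 41 it was at least 10 FPKM and in 6 it was at least 50 FPKM. At the other end, the genes nearest to the fold limit had values close to those of the genes left out. Just inside lay Phvul.009G126900 (1.23 FPKM in Albion, 0.37 in Voyager, log2 difference -1.50) and Phvul.008G240100 (2.32 and 0.74, -1.53) on the Albion side, and Phvul.007G276700 (6.45 and 18.68, 1.52) and Phvul.005G061800 (20.49 and 59.14, 1.52) on the Voyager side. Just outside lay Phvul.007G216200 (8.37 and 2.9, -1.50) and Phvul.007G036700 (2.11 and 0.69, -1.48) on the Albion side, and Phvul.009G256600 (1.35 and 3.95, 1.48) and Phvul.007G276100 (0.31 and 1.03, 1.46) on the Voyager side.

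The highest level among the 174 genes was that of Phvul.003G019000, on chromosome 3 of the v1.0 genome from 1670315 to 1671202. It had 171.76 FPKM in Albion against 16.49 in Voyager, a 10.4-fold difference. It was the last of 5 unannotated genes that followed each other within 12.8 kb, with spans of 650 to 888 bases. The gene before it, Phvul.003G018900, had 438.31 FPKM in Albion against 42.04 in Voyager, and the one before that, Phvul.003G018800, had 273.48 and 24.16. These neighbours exceeded the limit of 100 FPKM on the mean and were therefore not among the 174, but their log2 differences of -3.38 and -3.50 were close to the -3.37 of Phvul.003G019000. The remaining genes of the row did not share this pattern, with 25.80 and 24.50 FPKM for Phvul.003G018600 and 63.39 and 97.22 for Phvul.003G018700. The higher level in Albion was thus shared by the last 3 of the 5 genes.

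Phvul.006G202700, on chromosome 6 from 30681855 to 30682601, came next with 149.60 FPKM in Albion against 16.10 in Voyager, a 9.29-fold difference. The preceding gene, Phvul.006G202600, annotated as beta carbonic anhydrase 5, an enzyme that interconverts carbon dioxide and bicarbonate, had 18.72 and 19.89 FPKM, and the following unannotated gene, Phvul.006G202800, was weak and leaned the other way, with 0.36 and 0.75. Neither was past the fold limit. The third of the strong genes on the Albion side was Phvul.006G069400 (chromosome 6, 18869836 to 18872662), with 64.63 FPKM in Albion against 21.85 in Voyager. The listed gene before it, Phvul.006G069300 (18819790 to 18824196), was that of glutamine-dependent asparagine synthase 1, which makes the nitrogen carrier asparagine. This gene also had the higher level in Albion, with 5.08 FPKM against 1.04. A different annotated gene lay nearer to Phvul.006G069400 and was not among the neighbours past the fold limit described below. Further down in level, Phvul.002G211100 (chromosome 2, 37176319 to 37177989) had 30.86 FPKM in Albion against 6.45 in Voyager, and Phvul.009G024600 (chromosome 9) had 30.02 and 10.35.

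On the Voyager side the highest level belonged to Phvul.011G121700, on chromosome 11 from 21316423 to 21317872, with 6.28 FPKM in Albion against 96.07 in Voyager. This 15.3-fold difference was also the largest among the 6 genes that reached 50 FPKM. Phvul.011G205000 (chromosome 11, 48439381 to 48439996) had 21.07 and 65.32 FPKM, and Phvul.005G061800 (chromosome 5, 8760058 to 8760504) had 20.49 and 59.14. Levels between 30 and 40 FPKM in Voyager were reached by Phvul.011G120600, with 11.71 FPKM in Albion against 35.04 in Voyager, and by Phvul.003G041600, with 6.96 and 33.25. The latter is a gene model of only 180 bases on chromosome 3, from 4629202 to 4629381.

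**Figure D2:**
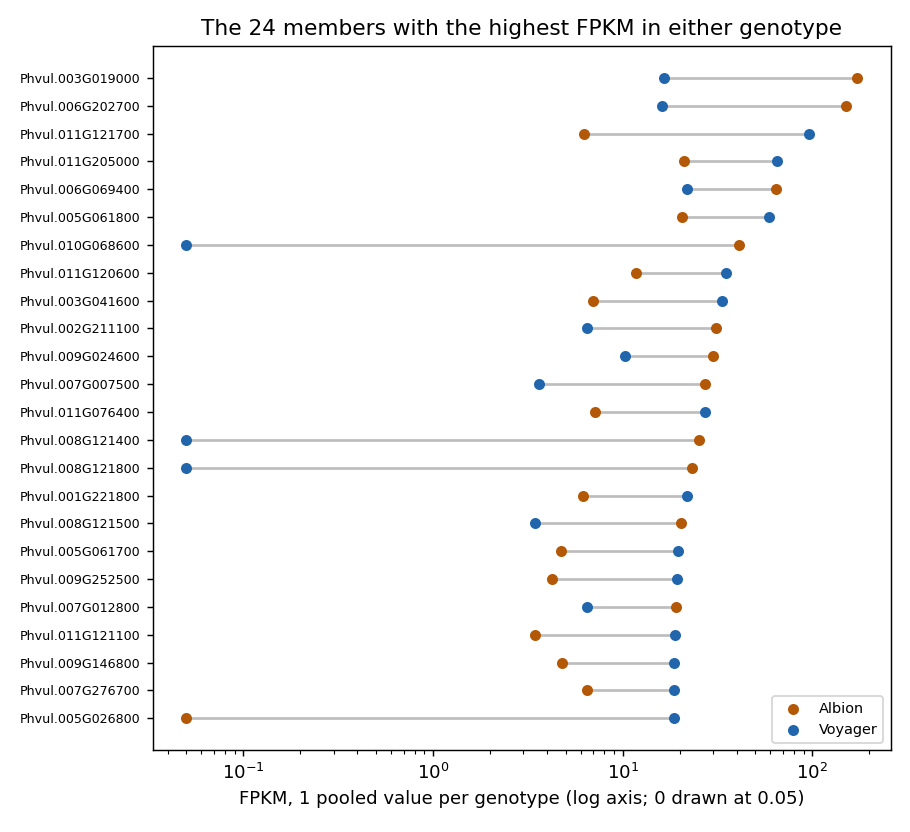
FPKM in Albion (orange) and Voyager (blue) on a log axis for the 24 chosen genes with the highest level in either genotype, ordered by that level, 1 pooled value per genotype and genes listed at 0 drawn at the lower end. Phvul.003G019000 and Phvul.006G202700 lead with the Albion value near 10 times the Voyager value, Phvul.011G121700 is the highest on the Voyager side, and 4 of the 24 genes are listed at 0 in a genotype.

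Some genes were close to silent in a genotype without being listed at 0. Phvul.003G003700 (chromosome 3, 349823 to 350849) had 0.11 FPKM in Albion against 14.72 in Voyager. Its nearest annotated neighbour, Phvul.003G003800, was annotated as a member of the MADS-box transcription factors, a family that controls flower and fruit identity in plants, and had 0.34 FPKM in Albion against 1.24 in Voyager. Phvul.001G079800 (chromosome 1, 12852204 to 12852638) had 0.41 and 5.07 FPKM. In the other direction, Phvul.008G209200 (chromosome 8, 52077091 to 52079389) had 15.89 FPKM in Albion against 0.21 in Voyager, Phvul.006G174000 (chromosome 6, 28452253 to 28456418) had 5.03 and 0.07, and Phvul.005G017400 (chromosome 5, 1530185 to 1530815) had 12.64 and 0.89. Ratios of such values depend on a lower level that is given to the second decimal. With 1 in place of 0.1 added to each value, the log2 difference of Phvul.003G003700 went from 6.14 to 3.82, and that of Phvul.006G174000 from -4.92 to -2.49. Phvul.005G017400 lay in another row of short unannotated genes whose levels varied widely, and its neighbours Phvul.005G017300, with 261.69 FPKM in Albion against 302.80 in Voyager, and Phvul.005G017500, with 27.32 and 22.00, differed little between the genotypes.

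Of the 174 genes, 62 were listed at 0 in a genotype, 37 of them in Albion and 25 in Voyager. Among the unannotated genes within the limits these 62 were 2.37%, while 60 annotated genes, 0.402%, were past the fold limit with a value of 0. Over all genes the share was 0.695%. Split by span, such genes were 23 of 90 unannotated and 8 of 52 annotated genes under 300 bases. From 300 to under 500 bases they were 15 of 182 and 18 of 185, and from 500 to under 1000 bases 10 of 475 and 13 of 676. From 1000 bases on they were 14 of 1871 and 21 of 14012. None of the 325 listed genes annotated as ribosomal protein was at 0. No fold is given for a gene listed at 0. Most of these genes were weak where they were detected, with a median of 2.12 FPKM in the other genotype, and 13 of the 62 reached 5 FPKM.

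The strongest gene listed at 0 was Phvul.010G068600, on chromosome 10 from 17352245 to 17352518, with 41.16 FPKM in Albion against 0 in Voyager. In the same part of chromosome 10, Phvul.010G068400 (17227791 to 17227940) showed the reverse, with 0 in Albion and 12.65 FPKM in Voyager, while the annotated gene between them, Phvul.010G068500, a MAC/Perforin domain gene, had 16.76 and 16.70 FPKM. Phvul.010G068600 was followed by genes annotated as photosystem I PsaA/PsaB protein, chloroplast ribosomal protein S14 and YCF9, names of genes that plants carry in the chloroplast genome, and these had between 1.05 and 5.80 FPKM. A value of 0 in Voyager was also given for Phvul.008G121400 and Phvul.008G121800, described below, and for Phvul.009G038700 (6.01 FPKM in Albion), Phvul.011G141800 (5.78), Phvul.009G011500 (5.4) and Phvul.011G084800 (4.23). Weaker genes of this kind were Phvul.005G020900 (2.82), Phvul.010G056100 (2.29), Phvul.007G026800 (2.25), Phvul.002G027300 (2.24) and Phvul.008G245500 (2.18). In Albion, 0 was listed for Phvul.005G026800 (18.62 FPKM in Voyager), Phvul.007G220500 (15.51), Phvul.006G177900 (7.34), Phvul.002G310800 (6.25), Phvul.011G015400 (5.10) and Phvul.001G008700 (5.08). Between 3 and 5 FPKM in Voyager were reached by Phvul.003G106000 (4.31), Phvul.005G052600 (4.01), Phvul.010G155600 (3.97), Phvul.010G010700 (3.86), Phvul.002G116100 (3.81) and Phvul.003G183900 (3.41). Between 2 and 3 FPKM lay Phvul.009G255400 (2.42), Phvul.001G001800 (2.31), Phvul.006G060200 (2.14), Phvul.007G039700 (2.1), Phvul.009G105000 (2.07), Phvul.004G099200 (2.03) and Phvul.002G235100 (2.03), beside a pair on chromosome 11 given with the gene spans. Phvul.005G026800, from 2442049 to 2442821 on chromosome 5, lay before the strongly expressed unannotated gene Phvul.005G027000, which had 3304 FPKM in Albion against 3189 in Voyager.

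Many of the genes listed at 0 were very short. Phvul.007G220500 spanned 147 bases, Phvul.010G068400 150 bases, Phvul.009G038700 171 bases and Phvul.002G310800 210 bases. The median span, from the start to the end of a gene in the table, was 377 bases for the 62 genes listed at 0, 889.5 bases for the 112 other chosen genes and 2231.5 bases for the unannotated genes that were not chosen. For the annotated genes within the limits the median was 3738 bases. A span under 300 bases was found for 30 of the chosen genes. Phvul.011G150500 and Phvul.011G150600, both 183 bases long and 16315 bases apart on chromosome 11, were listed with the same pair of values, 0 in Albion and 2.55 FPKM in Voyager. If the models were near-identical copies, reads could be divided between them by the estimation. Their sequences were not examined, so these values are uncertain.

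Gene span moved together with the share of genes past the fold limit in annotated and unannotated genes alike. With a span under 300 bases, 33.3% of 90 unannotated and 26.9% of 52 annotated genes were past the limit. From 300 to under 500 bases the shares were 20.3% and 18.4%, and from 500 to under 1000 bases 9.26% and 10.1%. From 1000 to under 2000 bases they were 5.06% and 6.25%, and from 2000 to under 5000 bases 2.77% and 3.00%. From 300 to under 5000 bases the shares of the classes were close to each other, whereas under 300 bases that of the unannotated genes was higher. A span under 500 bases was found for 67 of the 174 genes (38.5%), for 9.25% of the annotated genes past the limit, for 8.39% of the other unannotated genes and for 1.59% of all annotated genes within the limits. The classes differed more where they were matched on level alone, with 12.6% and 7.38% at a mean of 1 to 2 FPKM and 3.98% and 2.50% at 5 to 10 FPKM. Among genes of at least 1000 bases the shares were 4.06% and 4.12% at a mean of 2 to 5 FPKM and 1.78% and 2.21% at 5 to 10 FPKM. The unannotated share was the higher at lower levels, with 16 of 40 and 81 of 303 genes at 0.5 to 1 FPKM and 10.6% and 6.62% at 1 to 2 FPKM. It was the lower at 10 to 20 FPKM, with 4 of 436 (0.917%) and 39 of 3195 genes (1.22%). At 20 to 50 FPKM it was also the lower, with 1 of 365 (0.274%) and 32 of 3197 genes (1.00%). These unannotated shares rest on very few genes. The part that gene length and level played in the differences was not tested.

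**Figure D3:**
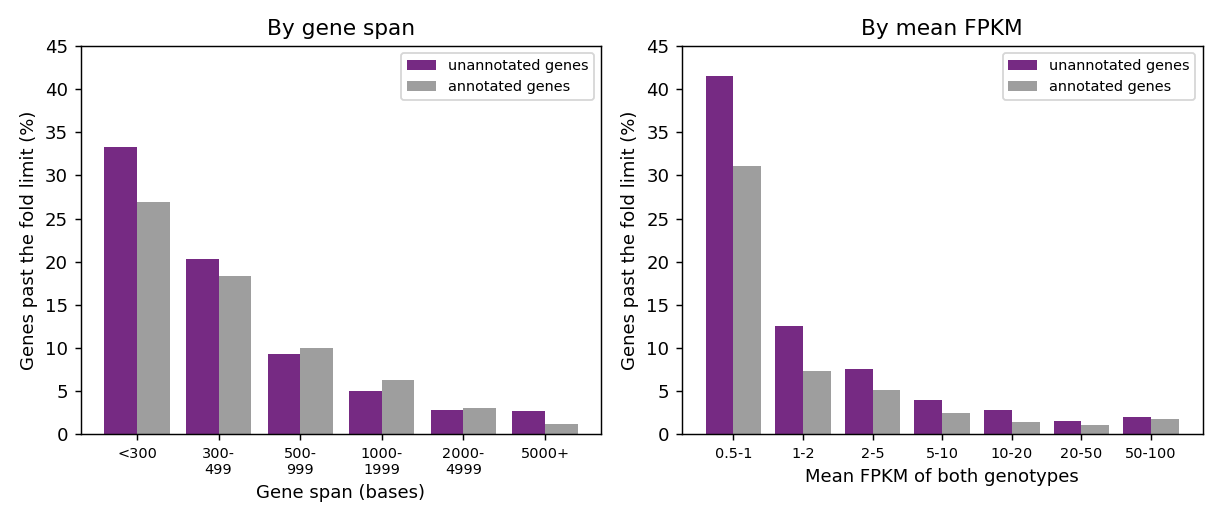
Percent of genes past the fold limit (y axis) by gene span in bases (left) and by mean FPKM of both genotypes (right), for unannotated genes (purple) and annotated genes (grey). The share falls from 33.3% and 26.9% under 300 bases to 2.77% and 3.00% from 2000 to under 5000 bases, with the classes close together in most span classes and further apart when split by level.

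The shares were also apart in the class of at least 5000 bases, with 2.65% of 453 unannotated and 1.17% of 4875 annotated genes. Of the 12 chosen genes in it, 7 shared their locus with another listed gene. Over all lengths, 10 of the 174 genes did so, each with exactly the locus of 1 annotated gene, so that the span given for them is that of the joint locus. None of the 10 annotated partners was past the fold limit, and their log2 differences lay between -1.04 and 0.38. Phvul.007G036900 had 11.05 FPKM in Albion against 2.48 in Voyager, whereas its partner Phvul.007G036800, an ABC-2 type transporter gene, had 22.00 and 23.73. Phvul.002G069200 had 1.53 and 0.15 FPKM beside 15.98 and 15.09 for its partner Phvul.002G069100, an appr-1-p processing enzyme gene. Phvul.003G121700, with 5.48 and 0.66 FPKM, was paired with the CBL-interacting protein kinase 1 gene Phvul.003G121600, a calcium signalling kinase gene, which leaned the same way with 5.93 and 2.9. Reads may be divided between such genes, so these 10 values are less certain. Among genes that overlapped another listed gene, 10.3% of 97 unannotated and 1.28% of 234 annotated genes were past the limit, and among genes of at least 5000 bases without an overlap the shares were 1.3% and 1.18%.

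The 174 genes were spread over all 11 chromosomes, with 3 on scaffolds. Chromosome 11 had 26 of them, 11.7% of its 223 unannotated genes within the limits, and the other chromosomes had between 5.22% (chromosome 10) and 7.14% (chromosome 8). Annotated genes also had their highest share on chromosome 11, with 6.93%, followed by chromosome 4 with 6.42%, where the unannotated genes had 5.44%. Unannotated genes on chromosome 11 were the shortest, with a median span of 1512 bases against 1777 to 2382.5 bases elsewhere. The numbers higher in Voyager were 11 of 16 on chromosome 1, 13 of 17 on chromosome 2, 10 of 16 on chromosome 3, 7 of 8 on chromosome 4, 7 of 12 on chromosome 5 and 8 of 14 on chromosome 6. They were 5 of 16 on chromosome 7, 8 of 19 on chromosome 8, 8 of 20 on chromosome 9, 4 of 7 on chromosome 10 and 15 of 26 on chromosome 11. These can be read beside the 56.3% of the 174 genes and the 60.7% of the annotated genes past the limit that were higher in Voyager.

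**Figure D4:**
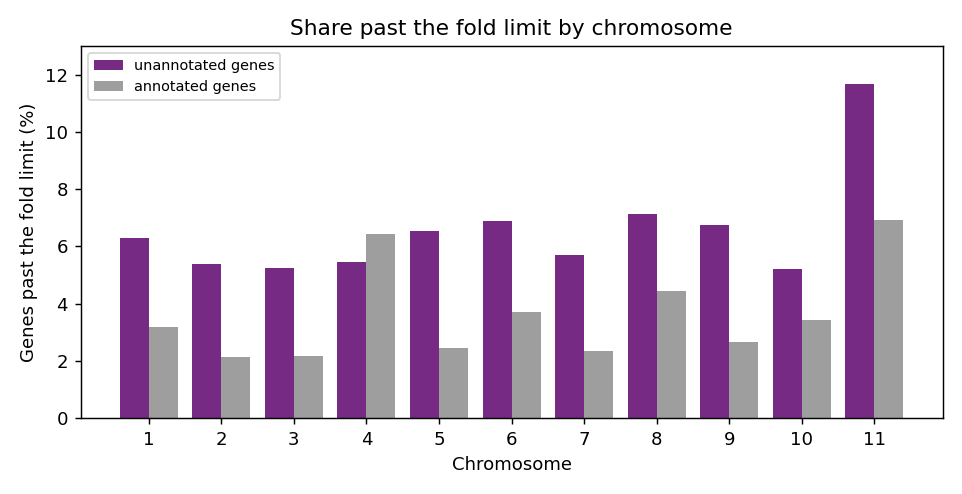
Percent of genes past the fold limit (y axis) on each of the 11 chromosomes (x axis) for unannotated (purple) and annotated genes (grey). Chromosome 11 has the highest share in both classes, 11.7% and 6.93%, and on chromosome 4 the annotated share of 6.42% exceeds the unannotated share of 5.44%.

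Some of the genes lay side by side. In 25 of the 174 genes (14.4%), another of them was among the next 2 listed genes on the chromosome. Counted in the same way within each set, this held for 219 of all 693 genes past the fold limit (31.6%). Among the 519 annotated genes past it, the number was 163 (31.4%). The share was thus lower for the 174 genes, but the sets differ in size, which by itself affects how many neighbours they hold. The 25 genes formed 12 groups. In 9 groups the members were higher in the same genotype, 6 times in Voyager and 3 times in Albion, and in 3 groups the directions were mixed.

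A stretch of chromosome 8 from 16318651 to 16418780 held 4 listed genes, and all of them were lower in Voyager. The 3 unannotated ones were Phvul.008G121400 (25.29 FPKM in Albion, 0 in Voyager), Phvul.008G121500 (20.42 and 3.46) and Phvul.008G121800 (23.27 and 0). Their spans were 441, 481 and 454 bases. The annotated gene between them, Phvul.008G121700, carried the name cysteine-rich protein, was 387 bases long and had 4.16 FPKM in Albion against 0 in Voyager. On chromosome 11, the pair Phvul.011G150500 and Phvul.011G150600 were followed by a gene annotated as low-molecular-weight cysteine-rich 35, Phvul.011G150800, with 88.38 FPKM in Albion against 154.37 in Voyager. In A. thaliana this name is given to genes of small defensin-like peptides. Phvul.011G185800, with 8.04 FPKM in Albion against 2.07 in Voyager, lay near low-molecular-weight cysteine-rich 15 (Phvul.011G186100, 131.50 and 142.39 FPKM) and 19 (Phvul.011G186400, 67.64 and 23.67 FPKM), and the unannotated genes just before it, Phvul.011G185700 and Phvul.011G185600, had 18.17 and 9.20 and 196.32 and 94.52 FPKM. The latter stretch was chosen after its values were seen.

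Another stretch of chromosome 11, from 7004675 to 7085053, was higher in Voyager over nearly all of its genes, and it too was singled out after its values were seen. Of its 10 listed genes, 9 had a log2 difference of at least 1 and 7 were past 1.5. The unannotated genes were Phvul.011G075700 (1.73 FPKM in Albion, 6.59 in Voyager), Phvul.011G075800 (0.64 and 2.82) and Phvul.011G076400 (7.18 and 27.03). Of the annotated genes among them, beta-galactosidase 8 (Phvul.011G075900), named for enzymes that trim galactose from cell wall sugars, had 0.21 and 3.17 FPKM and FASCICLIN-like arabinogalactan-protein 12 (Phvul.011G076000), named for a cell surface protein, had 0.26 and 1.89. At the end of the stretch, the gene of the nucleolar RNA-binding Nop10p family, Phvul.011G076600, reached 423.42 FPKM in Albion against 1249 in Voyager. The exception was Phvul.011G076300, a ribosomal protein S5 domain 2-like gene, with 36.90 and 29.58 FPKM.

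A further stretch of chromosome 11 held 11 listed genes over 161.6 kb, none of them annotated. Of these, 9 were higher in Voyager and 2 higher in Albion, and both of the latter were among its 5 chosen genes. It included Phvul.011G121700, the strongest gene on the Voyager side. Phvul.011G120600 (11.71 FPKM in Albion, 35.04 in Voyager) and Phvul.011G121100 (3.45 and 18.98) were likewise higher in Voyager, whereas Phvul.011G120700 (2.10 and 0.53) and Phvul.011G121400 (1.09 and 0.27) were higher in Albion. In the same stretch, 4 genes had a mean of 100 FPKM or more. Phvul.011G121000 had 3790 FPKM in Albion against 4648 in Voyager, Phvul.011G120500 had 2354 and 3171, Phvul.011G121200 had 1018 and 1339 and Phvul.011G121300 had 640.49 and 886.99. Their log2 differences lay between 0.29 and 0.47. None of these 4 genes was past 1.5.

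**Figure D5:**
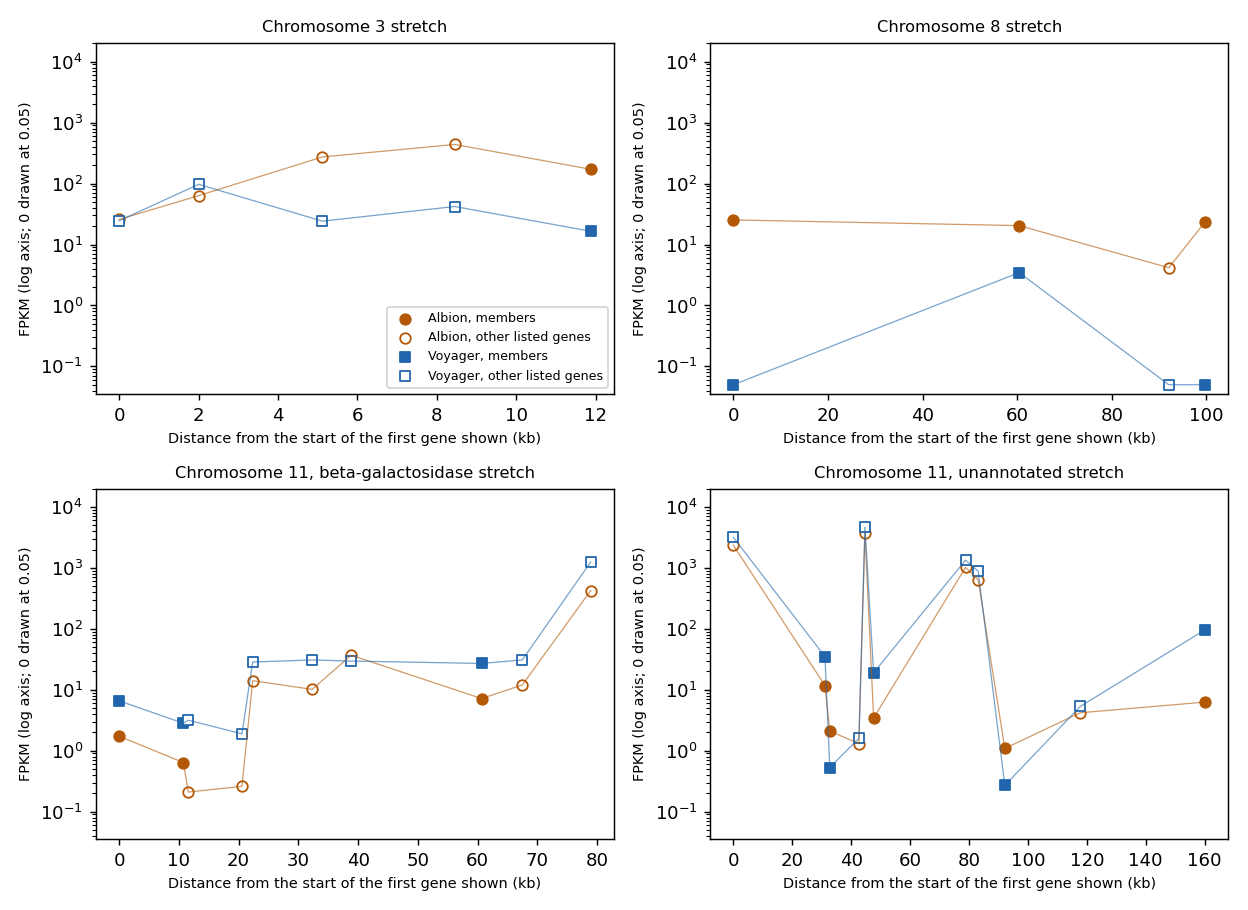
FPKM (y axis, log axis, 0 drawn at the lower end) in Albion (orange circles) and Voyager (blue squares) of listed genes in 4 stretches, by distance in kb from the start of the first gene shown, with the chosen genes filled and other listed genes open. Albion is higher for the last 3 of 5 genes on chromosome 3 and for the 4 genes on chromosome 8. Voyager is higher for 9 of 10 genes in the beta-galactosidase stretch of chromosome 11. In the unannotated stretch of chromosome 11 Voyager is higher for 9 of 11 genes and the lines cross.

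Directions were also mixed at 48 Mb of chromosome 11, where 10 unannotated genes of 329 to 707 bases followed each other, 5 of them higher in each genotype. Phvul.011G204100 had 6.78 FPKM in Albion against 1.09 in Voyager and Phvul.011G205000 was higher in Voyager, as given above. Between them, Phvul.011G204500 had 9037 and 59911 FPKM, a log2 difference of 2.73 in a gene kept out by the limit on the mean. It was 1 of 4 unannotated genes past the fold limit that were kept out in this way, the others being Phvul.003G018800 and Phvul.003G018900 on chromosome 3 and Phvul.007G046200 (239.46 FPKM in Albion, 51.72 in Voyager). On chromosome 5, Phvul.005G061700 (4.73 FPKM in Albion, 19.55 in Voyager) and Phvul.005G061800 were followed by Phvul.005G061900 (0.74 and 1.33) and Phvul.005G062100 (1.68 and 4.32). These 4 genes were all unannotated, 432 or 447 bases long and higher in Voyager. The unannotated gene before them, Phvul.005G061600, was 1025 bases long and higher in Albion, with 7.20 FPKM against 4.27. The models of equal length could be copies of each other, and reads could then be divided between them, which was not examined here.

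The other groups had low levels. Phvul.002G029900 (0.49 FPKM in Albion, 2.39 in Voyager) and Phvul.002G030100 (0.68 and 2.4) on chromosome 2 flanked Phvul.002G030000, a model of 150 bases with 9784 and 12382 FPKM. Phvul.004G166800 (0.29 and 1.36) and Phvul.004G167200 (0.28 and 1.17) lay on chromosome 4, and Phvul.011G146500 (0 and 1.39) and Phvul.011G146600 (1.38 and 5.66) on chromosome 11. On the Albion side, Phvul.008G209000 (1.86 FPKM in Albion, 0 in Voyager) stood near Phvul.008G209200, and the RNA-binding KH domain gene between them, Phvul.008G209100, had 45.09 and 48.91 FPKM. Phvul.009G028000 (1.77 and 0.44) and Phvul.009G028100 (2.57 and 0) were neighbours on chromosome 9.

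The nearest annotated gene was examined for every unannotated gene within the limits. It was itself within the limits for 148 of the 174 genes, at a median distance of 7213.5 bases, and for 2199 of the others, at a median distance of 3859 bases. Of the 148 neighbours, 12 (8.11%) were past the fold limit, against 47 of 2199 (2.14%), and both can be read against the 3.48% of all annotated genes. In 9 of the 12 cases the neighbour differed in the same direction, against 22 of the 47. With differences of any size, the sign was the same for 91 of the 148 and for 1214 of the 2199. Since Phvul.008G121700 and beta-galactosidase 8 were each counted for a pair of genes, each time in the same direction, the 12 cases rest on 10 neighbours. The difference between the shares was not tested. Opposite directions were found for Phvul.008G152700 (10.71 FPKM in Albion, 1.62 in Voyager), whose neighbour Phvul.008G152800, a nodulin MtN21/EamA-like transporter gene 170 bases away, had 7.39 and 27.82 FPKM. They were also found for Phvul.004G040800 (1.04 and 0.11), beside a malectin/receptor-like protein kinase gene with 0.26 and 1.80 FPKM, and for Phvul.011G102900 (0 and 1.21), beside beta glucosidase 11 with 1.78 and 0.

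Lists of genes taken by words of the annotation were used as a rough description of the pods. The seed words were cupin, late embryogenesis, oleosin, seed storage and embryo. The photosynthesis words were photosystem, chlorophyll a/b, light harvesting and RUBISCO, and the secondary wall words cellulose synthase, laccase, irregular xylem and lignin. The word embryo also takes in genes named EMBRYO DEFECTIVE, such as Phvul.006G221600, so the sums do not measure the amount of a tissue. The 182 genes of the seed list summed to 27152 FPKM in Albion against 29390 in Voyager, and the 91 genes of the photosynthesis list to 21722 and 19598 FPKM, with none of them at 0. The ratio of the Voyager sum to the Albion sum was 1.08 for the seed list and 0.902 for the photosynthesis list. For all genes averaging 1 FPKM or more it was 1.14, from sums of 829915 and 949275 FPKM. A single gene, Phvul.011G204500, gave 9037 FPKM of the Albion sum and 59911 of the Voyager sum, so this ratio is a poor standard for the lists. The median log2 differences of the lists were 0.09 and -0.07, and the 43 genes of the secondary wall list had 0.09, against 0.07 for these 18512 genes. Of the seed list, 4 genes were past the fold limit towards Voyager and 3 towards Albion. For the photosynthesis list these numbers were 1 and 0, for the secondary wall list 4 and 1, and for all 18512 genes 327 and 222. The part of pod composition in the differences of the 174 genes was not tested.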

How the data were processed

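The authors trimmed and filtered paired-end reads with the FASTX-Toolkit, aligned them to the P. vulgaris v1.0 genome with TopHat 1.4.1 over a Bowtie 0.12.7 index and estimated abundance with Cufflinks 1.3.0 and Cuffdiff. The deposited FPKM values are pooled by the authors over the 3 replicates of agenotype. The table also holds the authors' own fold changes, test statistics, p-values and q-values, which were not used. It carries no counts and no values of single samples. The study states a mean number of mapped reads per sample, which was not used here to estimate fragments per gene, so the precision of a value is not given, and no test was made. FPKM summed to 830694 in Albion and 950155 in Voyager. Log2 differences were computed with 0.1 added to each value. Starts in the table were read as counting from 0, since most spans of short models are multiples of 3 under that reading, and are given counting from 1. Of the 90 unannotated genes under 300 bases within the limits, 78 had such a span, against 6 if starts were read as counting from 1. The RefSeq gene table (P. vulgaris v2.0) matched 0 identifiers, so no product name, protein or promoter was used and the product groups, motifs and protein comparisons planned were not made.

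Named genes were the 10 per direction with the largest log2 difference among those with at least 5 FPKM, the 5 per direction with the highest level, those listed at 0 with at least 2 FPKM in the other genotype, those with another chosen gene among the next 2 listed genes, and the 2 on each side of the fold limit in each direction. A part of the rule that compares proteins could not be applied. Neighbours outside the rule, Phvul.009G024600, Phvul.011G121100, Phvul.011G204100, Phvul.011G185800, Phvul.011G076400 and the genes named for a shared locus or a neighbour were added with their values in view. The genes and lists were chosen with earlier results of these data known. Calculations used Python 3.11, numpy 2.4.6 and pandas 2.3.3, and figures matplotlib 3.10.9. The selection was tested on simulated data with 200 changed genes.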

Additional observations from a re-analysis of the deposited data

How the results depend on the processing

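With 1 added in place of 0.1, 87 genes met the rule, 48 higher in Voyager and 39 in Albion, which were 3.32% of unannotated and 1.73% of annotated genes, and 9 had another among the next 2 listed genes. A minimum of 5 FPKM left 71 genes (37 and 34, 3.995% and 2.20%), 7 of them near another. A limit of 2 on the log2 difference left 115 genes (63 higher in Voyager, 4.39% and 2.26%), 9 of them near another. The next 2 settings were chosen after seeing the data. Without genes listed at 0, 112 genes remained (61 higher in Voyager, 4.38% and 3.09%), 12 of them near another. Without spans under 1000 bases, 63 remained (35 and 28, 3.37% and 2.88%), 4 of them near another. With 0.01 added, no minimum, no limit on the mean, centring on the median of all genes (0.07) or leaving out shared loci, no count moved by more than 1.5 times. With equal FPKM totals, 177 genes met the rule, 158 of them shared with the 174, and 46.3% in place of 56.3% were higher in Voyager. Centring on the median gave 170 genes, 165 of them shared, with 52.4% higher in Voyager. Of the 33 named genes above 0 in both genotypes, the fold between the genotypes moved by over 1.5 times in 17 with 1 added and in 2 with 0.01 added. No paired analysis was possible because the table holds no values of single samples, and for the same reason no replicate could be left out. The table gives no counts, and no limit of detection was computed for a value of 0.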
